A study of Mus musculus with 8 samples.

Results

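The 36 genes described here encode subunits of the Sin3, NuRD, NCoR, CoREST and PRC2 corepressor complexes of the mouse. They were chosen by name as known subunits, out of 19057 gene symbols on the array, and 32 of them had a probe with that symbol alone. The other 4 (Hdac1, Brms1l, Gatad2a and Ncor1) were not analysed here. Each gene was read by its brightest probe, the one with the highest mean over the 8 arrays, and its other probes served as a check. RNA was measured on Illumina bead arrays in female pre-iPSCs derived from neural stem cells, which are cells stalled partway to the pluripotent state. They came from a 129/MF1 background, carried an Oct4-GFP-IRES-puro reporter and grew in serum with LIF, and all were taken at day 0. Per the labels' protocols, every group was stably transfected with PiggyBac vectors with a CAG promoter, a strong and broadly active promoter, and selected with hygromycin, blasticidin or both. The 4 groups of 2 arrays each carried empty vectors (EV), Nanog with an empty vector (Nanog), Sin3a with an empty vector (Sin3a), or both genes (Nanog+Sin3a). Whether both arrays of a group came from separate cultures is not given in the labels, and the p-values therefore reflect the spread between arrays alone, which may be technical. The series title asks whether the Sin3a complex and Nanog cooperate in reprogramming, and the comparisons below ask whether either transgene went with a change in the RNA of the corepressor subunits.

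Corepressors have no DNA specificity of their own in most cases: DNA-bound factors bring them to genes, where they remove active marks or place repressive ones. Sin3a and Sin3b are scaffolds that hold the histone deacetylases Hdac1 and Hdac2 with the histone-binding proteins Rbbp4 and Rbbp7. The same deacetylase core sits in NuRD, which adds the ATP-dependent remodellers Chd3 and Chd4, the Mta scaffolds and the methyl-CpG-binding-domain proteins Mbd2 and Mbd3. NCoR works with Hdac3, CoREST joins Hdac1 and Hdac2 to the lysine demethylase Kdm1a (Lsd1), and PRC2 methylates histone H3 on lysine 27 through Ezh2. These complexes help to set which genes stay silent in pluripotent and neural stem cells, and Nanog protein is known to bind members of the NuRD and Sin3 complexes.

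Values are probe intensities on a linear scale with the background subtracted. For tests, values below 16 (the floor, 4 on the log2 scale) were raised to it, and differences are on the log2 scale. The second array of the Sin3a group differed from its partner at low intensity. Among the 19 tested members with a mean log2 value of 9 or less (an intensity of 512), 12 differed by over 1 (log2) between the 2 Sin3a arrays, with a median size of 1.27 and the highest, 3.62, in Chd4. In the same 19 members no replicate pair of another group differed by more than 1.24. Of these 19, 8 were at the floor on the second Sin3a array and 1 on the first. Among the 11 brighter members, the size of the difference had a median of 0.08 and reached at most 0.36, in Brms1. Results are therefore given from 2 sets of arrays. One used 7 arrays, without the second Sin3a array, on 12886 features above the floor in at least 2 of them, which included 30 members. The other used all 8 arrays on the 2300 features with a mean log2 value above 9, called bright features, which included 11 members. Rcor1 lay just inside that threshold at a mean log2 value of 9.01, and Mta3 just outside at 8.98. Ing1, a reader of histone H3 methylated on lysine 4, read 9.20 or less on the 7 arrays and 35.9 on the second Sin3a array, and Mbd2 read between -7.60 and 12.3 on all 8, so neither was tested.

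**Figure D1:**
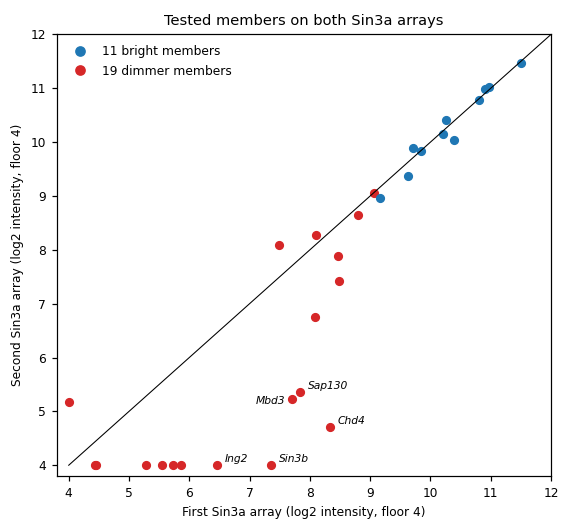
Each point is 1 of the 30 tested members, with its log2 intensity on the first Sin3a array (horizontal axis) against the second (vertical axis), values below the floor set to 4, and a line of equality. The 11 bright members (blue) lie near the line, and 12 of the 19 dimmer ones (red) lie over 1 (log2) from it, the 5 beyond 2 being named.

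Probes for the reporter's gene and for some markers of several lineages read above the floor. Pou5f1 (Oct4) read between 867 and 1167 on the 8 arrays, while of the 7 pluripotency markers listed it alone was above the floor on each of the 7 arrays, and Esrrb and Epcam were on none. Whether the Pou5f1 RNA came from the cells' own gene was not tested. The Nanog probe read 364.8 and 485.8 with Nanog and 289.5 and 285.2 with Nanog+Sin3a. It read -3.60 and -5.40 with EV and -7.30 and -12.2 with Sin3a. Nanog was thus lower with both transgenes than with Nanog alone, and the part of this in the comparisons below was not tested. Of the 6 neural stem cell markers, Nes was above the floor on all 7 arrays and Pax6, Olig2 and Fabp7 on none. Of the 3 neuron markers, Map2 was above the floor on all 7 arrays and Rbfox3 on none. Of the 5 mesenchymal markers, Thy1, Vim and Acta2 were above it on all 7, Col1a1 on 1 and Col1a2 on none. The summed intensity of all 5 was 2898 and 2903 with EV and 3858 and 3956 with Nanog. It was 3616 and 3231 with Sin3a and 3881 and 3691 with Nanog+Sin3a. Vim was the largest part of it, at 2200 and 2279 with EV. Thy1 read 218.2 and 215.6 with EV and 230.1 on the first Sin3a array. Acta2 read 473.5 and 408.2 with EV and 566.2 and 443.3 with Nanog+Sin3a, so single markers did not all follow the sum. Nes read 97.8 and 105.6 with EV, 67.7 and 75.3 with Nanog, 103.4 on the first Sin3a array and 0.600 on the second, and 60.3 and 57.7 with Nanog+Sin3a. The mesenchymal sum was thus higher than EV in every other group, and Nes lower on the 4 arrays with the Nanog transgene than on the EV arrays. Their part in the differences below was not tested. In such bulk RNA, fewer cells of a type and less RNA per cell cannot be told apart.

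Sin3a, the scaffold supplied by the transgene, was the member with the largest difference. The Sin3a probe read 329.3 and 261.8 with EV, 344.4 and 472.5 with Nanog, 1182 and 1142 with Sin3a, and 1485 and 1483 with both transgenes. All 4 arrays with the Sin3a transgene lay above all 4 without it. The probe does not tell RNA of the vector from RNA of the cells' own gene in those arrays. Sin3a was among the bright features only through the arrays with its own transgene. Its mean log2 value was 9.39 over the 8 arrays, but 8.20 with EV and 8.66 with Nanog, below the threshold of 9. Across the bright features Sin3a rose by 1.93 (log2, SE 0.11, adjusted p = 3.3e-10) as the mean of the differences made by the Sin3a transgene with and without Nanog. It rose in Sin3a against EV (1.98, adjusted p = 1.1e-07), in Nanog+Sin3a against EV (2.34, 2.8e-09) and in Nanog+Sin3a against Nanog (1.88, 2.7e-07). In 7 arrays the rise in Nanog+Sin3a against EV had adjusted p = 0.0023, and the rise over Nanog missed the threshold (1.88, adjusted p = 0.058), as did Sin3a against EV (2.01, adjusted p = 0.236), where the Sin3a group had 1 array. The 7-array call for Nanog+Sin3a against EV was lost on leaving out either EV array (adjusted p = 0.118 for the first and 0.160 for the second) or either Nanog+Sin3a array (0.0660 and 0.0704), and the rise over Nanog passed on leaving out the first Sin3a array (0.0411).

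The Sin3a probe also differed with Nanog. Over both Sin3a states it was higher by 0.41 with the Nanog transgene (log2, SE 0.11, 95% interval 0.18 to 0.63, adjusted p = 0.010, bright features, 4 arrays against 4). That result came from a gene that counted as bright only through the arrays with its own transgene. In 7 arrays the same difference was 0.39 and did not pass the test. On EV and Nanog arrays, where no Sin3a vector was present, both Nanog arrays read above both EV arrays, by 0.46 (SE 0.15, adjusted p = 0.063), which missed the threshold. Between the groups with the vector the difference was 0.35 (adjusted p = 0.128). The rise over both states was lost without the second EV array, at 0.32 with adjusted p = 0.084. Without the first Nanog array, which leaves 1 array in that group, Nanog against EV was 0.69. Sin3b, the paralogous scaffold, read 165.1 and 168.8 with EV, 141.9 and 126.2 with Nanog, 163.7 on the first Sin3a array, and 145.1 and 144.7 with Nanog+Sin3a. It read 11.5 on the second Sin3a array. With the Nanog transgene all 4 arrays were lower than both EV arrays and the first Sin3a array, which did not pass the test (log2 -0.25, SE 0.10, adjusted p = 0.172, 7 arrays). The Sin3b difference between the first Sin3a array and EV was -0.03 (95% interval -0.39 to 0.33).

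**Figure D2:**
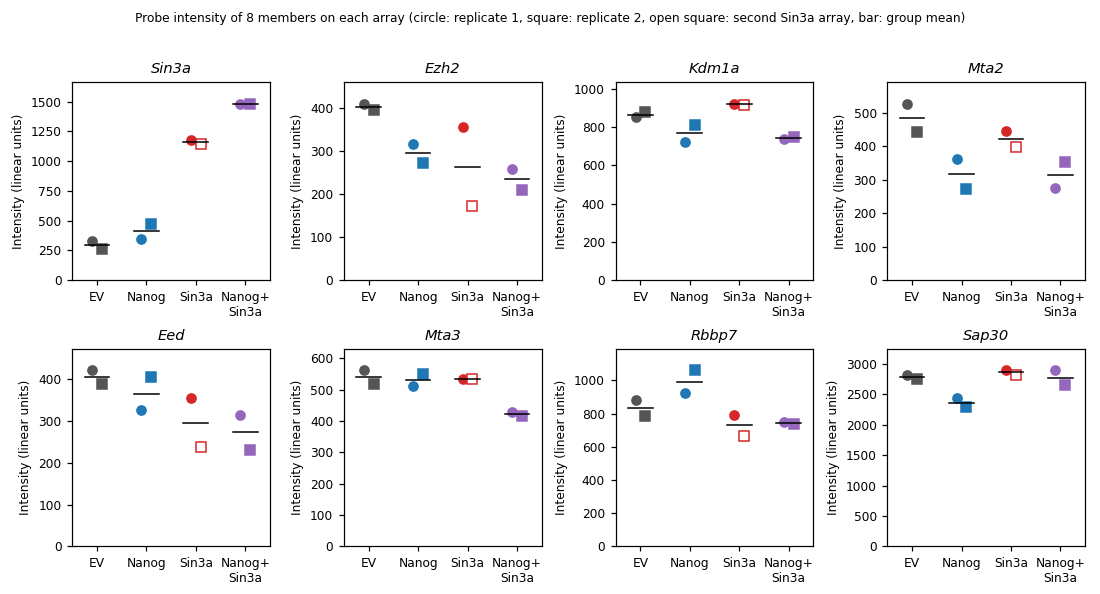
Intensity (linear units, axis from 0) of the brightest probe of 8 members on each array of the 4 groups, with circles for replicate 1, squares for replicate 2, an open square for the second Sin3a array and a bar at each group's mean. Sin3a is at 1142 or more on the 4 arrays with its transgene against at most 472.5 elsewhere, Ezh2 is lowest with Nanog+Sin3a among the 7 arrays other than the open square, and Kdm1a is lower on all 4 arrays with the Nanog transgene than on the other 4.

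Apart from Sin3a itself, 2 members passed a test: Ezh2 and Kdm1a, both lower with the Nanog transgene. For orientation the 250 bases upstream of their annotated transcription starts are given from RefSeq (GRCm38.p6), because these 2 members passed. The window of Ezh2 is chr6:47595031-47595280 and that of Kdm1a chr4:136602724-136602973, both printed 5′ to 3′ on the minus strand, which is the strand of each gene. Capitals mark matches on either strand to CCAAT, the box bound by NF-Y, or to TAAT, the core of many homeodomain sites.
Ezh2: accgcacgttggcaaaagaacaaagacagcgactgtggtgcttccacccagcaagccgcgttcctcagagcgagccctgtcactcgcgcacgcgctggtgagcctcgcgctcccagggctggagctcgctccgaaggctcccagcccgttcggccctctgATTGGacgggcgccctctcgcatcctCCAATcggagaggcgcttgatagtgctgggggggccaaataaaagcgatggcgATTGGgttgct
Kdm1a: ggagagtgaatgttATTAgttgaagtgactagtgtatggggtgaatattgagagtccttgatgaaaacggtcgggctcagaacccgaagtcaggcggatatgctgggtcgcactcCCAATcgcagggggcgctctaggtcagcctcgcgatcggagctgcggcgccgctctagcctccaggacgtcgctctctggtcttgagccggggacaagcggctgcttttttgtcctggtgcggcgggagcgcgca
The Ezh2 window held 3 CCAAT matches, which begin 90, 64 and 11 bases before the start, and no TAAT match. The Kdm1a window held 1 CCAAT match at 135 bases and 1 TAAT match at 236 bases before the start. Windows were at hand for 28 of the 36 members, 38 in all because some genes have several starts. CCAAT was present in 21 of these 38 windows (55.3%) and in 33.8% of all 32851 windows of the same length, and TAAT in 16 (42.1%) and in 54.9%. The E-box CACGTG, bound by dimers of Max with the Mxd factors that recruit Sin3, was present in 1 of the 38, that of Rbbp4, and in 6.02% of all. TTTNNCGC, an E2F-like site, was present in 4 (10.5%, Ogt, Sap30, Sin3b and Suz12) and in 4.28% of all. Each motif was searched on both strands; a match describes letters only, and no binding was measured.

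Ezh2, the methyltransferase of PRC2, was the only member other than Sin3a to pass a test in a comparison between 2 groups. Its probe read 411.3 and 396.8 with EV, 318.2 and 273.4 with Nanog, 357.0 on the first Sin3a array, 171.4 on the second, and 259.0 and 210.5 with Nanog+Sin3a. Among the 7 arrays, all 4 with the Nanog transgene were lower than the other 3. In 7 arrays Ezh2 fell 1.73-fold in Nanog+Sin3a against EV (log2 -0.79, SE 0.14, 95% interval -1.12 to -0.46, adjusted p = 0.026). Its difference in Nanog against EV was -0.45 (SE 0.14, 95% interval -0.78 to -0.12) and did not pass (adjusted p = 0.147), and in Nanog+Sin3a against Nanog it was -0.34 (adjusted p = 0.448). These comparisons share arrays: both against EV use the same 2 EV arrays. The comparison that follows was added after values had been seen. Over both Sin3a states, with the second Sin3a array left out, Ezh2 fell by 0.53 on the log2 scale with Nanog (log2 -0.53, SE 0.11, 95% interval -0.79 to -0.27, adjusted p = 0.037).

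The Ezh2 calls rested on most of the arrays. For Nanog+Sin3a against EV the adjusted p on leaving out the first or the second array of a group was 0.202 and 0.245 for EV, 0.0629 and 0.0518 for Nanog, and 0.0728 and 0.107 for Nanog+Sin3a. It was 0.0224 without the remaining Sin3a array. For the difference over both Sin3a states, leaving out the first or second array gave 0.185 and 0.191 for EV, 0.0685 and 0.110 for Nanog, and 0.0622 and 0.0901 for Nanog+Sin3a. The log2 difference stayed between -0.61 and -0.46 in these 6 fits. A second Ezh2 probe, above the floor on 5 of the 7 arrays, differed by -0.41 in Nanog+Sin3a against EV and by -0.34 over both Sin3a states. It read -4.70 and 60.6 on the Nanog+Sin3a arrays, so its replicates spread more widely than the groups did. The remaining Ezh2 probe was at or below the floor on the 7 arrays. With the mean of all Ezh2 probes the differences were -0.60 in Nanog+Sin3a against EV (adjusted p = 0.357) and -0.44 over both Sin3a states (adjusted p = 0.385). With all 8 arrays and all features the latter was -0.27 (adjusted p = 0.589).

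The other 2 subunits of the PRC2 core did not pass a test. Eed, which binds methylated lysine 27 of histone H3, read 422.0 and 388.9 with EV, 326.1 and 405.2 with Nanog, 354.1 and 237.9 with Sin3a, and 314.0 and 231.6 with Nanog+Sin3a. Both Nanog+Sin3a arrays were below both EV arrays, while the Nanog arrays overlapped the EV range. The difference in Nanog+Sin3a against EV was -0.59 (SE 0.18, 95% interval -1.01 to -0.16, adjusted p = 0.098, 7 arrays), and it passed with features above the floor on at least 4 arrays (adjusted p = 0.039). Another Eed probe was at or below the floor on both EV arrays and 1 Nanog+Sin3a array. Values on both sides of that comparison were thus raised to the floor, and its value of 0.26 does not give the size. Suz12, which PRC2 needs for its activity and stability, read between 1523 and 1594 on the 6 EV, Nanog and Nanog+Sin3a arrays and 1781 and 1765 with Sin3a. Both Sin3a arrays were above the other 6. Sin3a against EV gave 0.22 (SE 0.10, 95% interval 0.00 to 0.43, adjusted p = 0.628, bright features), and the interaction, the Sin3a difference with Nanog minus that without, was -0.24 (SE 0.15, adjusted p = 0.804).

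Kdm1a, the demethylase of CoREST, was lower with the Nanog transgene. Its only probe read 853.1 and 880.7 with EV, 723.8 and 811.7 with Nanog, 924.1 and 916.4 with Sin3a, and 736.7 and 747.1 with Nanog+Sin3a. The arrays with the Nanog transgene were all below the 4 without it. Kdm1a fell 1.18-fold over both Sin3a states (log2 -0.24, SE 0.08, 95% interval -0.42 to -0.07, adjusted p = 0.037, bright features). The difference was -0.18 in Nanog against EV (adjusted p = 0.363) and -0.31 in Nanog+Sin3a against Sin3a (SE 0.12, adjusted p = 0.087), neither past the threshold. In 7 arrays it was -0.25 (SE 0.07, adjusted p = 0.086). In the bright features the call was kept without the second Nanog array (adjusted p = 0.0264) and lost without the first (0.0915). It was also lost on leaving out either array of EV (0.0765 and 0.125), of Sin3a (0.0815 and 0.0830) or of Nanog+Sin3a (0.0846 and 0.0722). The log2 difference stayed between -0.29 and -0.20. Rcor1, the CoREST scaffold, read 539.3 and 612.5 with EV, 507.2 and 473.0 with Nanog, 571.0 and 499.1 with Sin3a, and 412.3 and 550.0 with Nanog+Sin3a. Its groups overlapped except for Nanog below EV, and it was lower by 0.20 over both Sin3a states without passing (log2 -0.20, SE 0.11, adjusted p = 0.201).

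These counts were set against those of all features. For Nanog over both Sin3a states, 1 of 30 members passed in 7 arrays (Ezh2, lower), where 8.02% of 12886 features did. In the bright features 2 of 11 passed (Sin3a higher and Kdm1a lower), where 26.5% of 2300 did. For Nanog+Sin3a against EV, 2 of 30 passed in 7 arrays (Sin3a higher and Ezh2 lower) against 7.45% of features, and 1 of 11 (Sin3a) against 17.0% in the bright features. For Nanog against EV no member passed, 0 of 30 where 2.69% of features did and 0 of 11 where 9.65% did. At an unadjusted p under 0.05 there were 5 of the 30 members and 2517 of the 12886 features, and 2 of the 11 and 604 of the 2300. Nanog+Sin3a against Sin3a likewise gave 0 of 11 members against 11.6% of bright features, with 2 members and 666 features at an unadjusted p under 0.05. So the members' counts were near or below the shares of all features in these comparisons.

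The comparisons for Sin3a gave few calls on the whole array. Sin3a was the 1 of 11 members that passed for the Sin3a difference over both Nanog states (0.348% of bright features), for Sin3a against EV (0.174%) and for Nanog+Sin3a against Nanog (0.261%). In 7 arrays 0 of 30 members passed for Nanog+Sin3a against Nanog, where 0.0155% of features did, with 7 members and 1413 features at an unadjusted p under 0.05. For Sin3a against EV 0 of 30 members and 0% of features passed, with 2 members and 510 features at an unadjusted p under 0.05. The interaction gave 0 of 11 members against 0.0435% of bright features, with 0 members and 150 features at an unadjusted p under 0.05, and the smallest adjusted p of a member was 0.804. For the 10 bright members other than Sin3a, the 95% interval of the Sin3a difference over both Nanog states lay wholly within 0.5 on either side of 0 on the log2 scale. Of these 10, 6 belong to the Sin3 complex or its deacetylase core: Hdac2, Rbbp7, Sap30, Sap30l, Suds3 and Brms1.

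**Figure D3:**
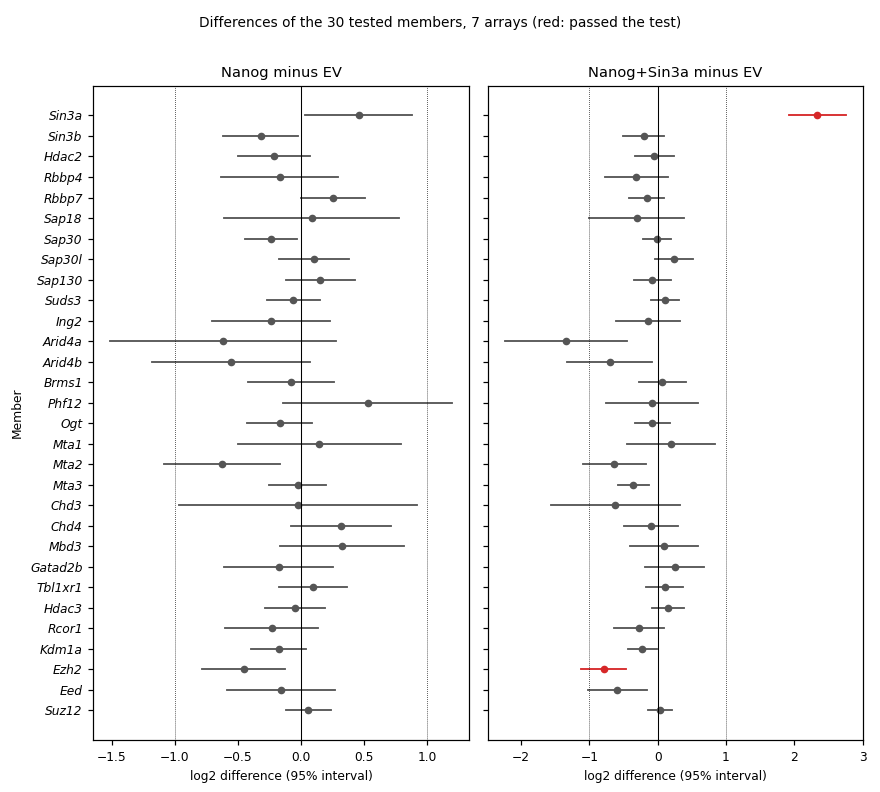
Differences on the log2 scale (points) with 95% intervals (lines) for the 30 tested members in 7 arrays, Nanog minus EV on the left and Nanog+Sin3a minus EV on the right, on axes of different range with dotted lines at -1 and 1. Red marks Sin3a (2.34) and Ezh2 (-0.79), which passed the test, and the intervals of 25 (left) and 23 (right) of the other 29 members lie within 1 on either side of 0.

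Of the 29 tested members other than Sin3a, 21 lay below 0 and 8 above for Nanog over both Sin3a states in 7 arrays, with a median of -0.15 where the median of all features was 0.01 and 51.4% of them lay above 0. The 10 bright members other than Sin3a were evenly split, with 5 below and 5 above for the same difference (median -0.03, against 0.01 for all bright features). The counts were 19 below and 10 above for Nanog against EV (median -0.08, against 0.00 for all features), and 20 and 9 for Nanog+Sin3a against EV (-0.09, against 0.01). In the bright features they were 7 below and 3 above for Nanog against EV (median -0.07) and 5 and 5 for Nanog+Sin3a against EV (0.02). For Nanog+Sin3a against Nanog in 7 arrays they were 17 and 12 (-0.04), and for Sin3a against EV 13 and 16 (0.01). All 4 arrays with the Nanog transgene were lower than the other 3 in 6 of the 30 members (Sin3b, Hdac2, Arid4a, Mta2, Kdm1a and Ezh2), where 12.5% of features showed this. They were all higher in 0 of the 30, where 11.9% of features showed it.

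Among the deacetylase core that Sin3 and NuRD share, 0 of 3 tested members passed in 7 arrays, where 0% to 8.02% of features did by comparison. In the bright features 0 of 2 passed, where 0.0435% to 26.5% did. Hdac2, one of the class I deacetylases, read 1793 and 1805 with EV, 1739 and 1384 with Nanog, 1926 and 2042 with Sin3a, and 1748 and 1737 with Nanog+Sin3a. Every array with the Nanog transgene was below the other 4, and the second Nanog array stood lowest. The difference over both Sin3a states was -0.20 (SE 0.08, 95% interval -0.37 to -0.03, adjusted p = 0.075, bright features). Without the first Nanog array, which leaves 1 array in that group, it was -0.28, and Nanog against EV was -0.38. Rbbp7 read 882.4 and 783.4 with EV, 923.1 and 1063 with Nanog, 794.1 and 665.4 with Sin3a, and 752.0 and 739.4 with Nanog+Sin3a. On this probe both Nanog arrays were above the other 6, while on 3 other Rbbp7 probes the Nanog arrays overlapped the rest. Nanog+Sin3a against Nanog gave -0.41 (SE 0.13, adjusted p = 0.203, bright features), where 3 other Rbbp7 probes gave -0.09, -0.25 and -0.08. The Sin3a difference over both Nanog states was -0.30 (SE 0.09, 95% interval -0.49 to -0.11, adjusted p = 0.201), and -0.35 without the first Nanog array. Rbbp4, the close relative of Rbbp7, read between 119.0 and 187.6 on the 7 arrays and 273.9 on the second Sin3a array. Its EV, Nanog and Nanog+Sin3a groups overlapped, and both Sin3a arrays read above the Nanog and Nanog+Sin3a arrays. Its difference over both Sin3a states was -0.27 (SE 0.15, 7 arrays) and did not pass, against -0.15 and -0.72 in 2 other probes.

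**Figure D4:**
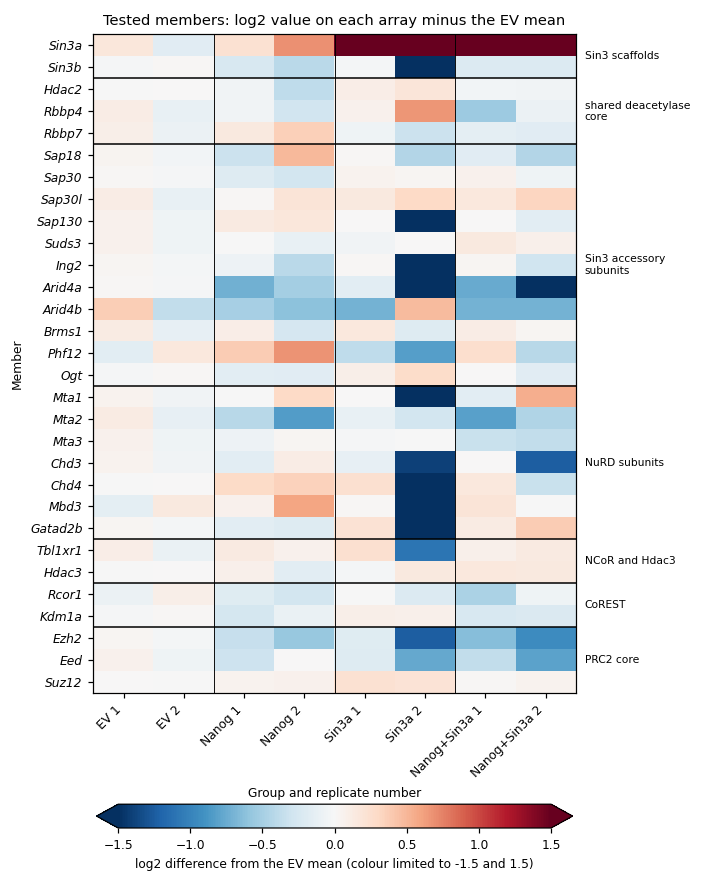
Each row is 1 of the 30 tested members and each column 1 of the 8 arrays, coloured by log2 intensity minus the mean of the 2 EV arrays (red higher, blue lower, colours limited to -1.5 and 1.5), with members grouped by complex. The Sin3a row is red on the 4 arrays with its transgene, the second Sin3a column is dark blue for several dim members, and the Ezh2 and Mta2 rows are blue on the 4 arrays with the Nanog transgene.

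The accessory subunits of Sin3 gave 0 of 11 tested members past the threshold in each comparison in 7 arrays, where 0% to 8.02% of features passed. In the bright features they gave 0 of 4, where 0.0435% to 26.5% did. Sap30, which ties the scaffold to the deacetylases, read 2810 and 2749 with EV, 2434 and 2291 with Nanog, 2893 and 2825 with Sin3a, and 2900 and 2652 with Nanog+Sin3a. Both Nanog arrays were below the other 6. Nanog against EV gave -0.24 (SE 0.10, 95% interval -0.44 to -0.03, adjusted p = 0.138, bright features) and Nanog+Sin3a against EV -0.0034 (95% interval -0.21 to 0.20). Its relative Sap30l read between 1028 and 1390 on the 8 arrays, with a difference of 0.24 in Nanog+Sin3a against EV (adjusted p = 0.177) and 0.23 in Sin3a against EV (adjusted p = 0.692). A dimmer second Sap30l probe gave -0.47 in Nanog+Sin3a against EV, so the probes disagreed in direction. Suds3 (Sds3), which supports the deacetylase activity, read between 1926 and 2297, and Brms1, its relative and a metastasis suppressor, between 1012 and 1349. In neither did any difference between 2 groups exceed 0.17 in size in the bright features.

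The dimmer accessory subunits were read less precisely. Arid4a, an Rb-binding protein with an ARID domain, read 65.4 and 64.0 with EV, 39.3 and 45.4 with Nanog, 58.0 and -4.60 with Sin3a, and 38.3 and 17.0 with Nanog+Sin3a. The 4 arrays with the Nanog transgene were below both EV arrays and the first Sin3a array. It had the largest negative difference of the members in Nanog+Sin3a against EV (-1.34, SE 0.37, 95% interval -2.24 to -0.45, adjusted p = 0.081), which missed the threshold, and a difference of -0.90 over both Sin3a states (SE 0.29, adjusted p = 0.117). Both passed when features had to be above the floor on at least 4 arrays (adjusted p = 0.021 and 0.039). Both also passed with a floor of 32 (-0.89, adjusted p = 0.0097, and -0.67, 0.0094), and the first with the mean of all probes (-0.83, adjusted p = 0.042). The second of them also passed with -1.19 on leaving out the first Nanog+Sin3a array (adjusted p = 0.035). A second Arid4a probe gave -0.32 for Nanog+Sin3a against EV. Its relative Arid4b was above the floor on 4 of the 7 arrays, at 33.6 and 20.2 with EV and 18.5 and 17.0 with Nanog, and it was at or below the floor with Nanog+Sin3a and on the first Sin3a array. Because those groups were at the floor, -0.70 in Nanog+Sin3a against EV (adjusted p = 0.153) is a bound on its size. Phf12, a reader of histone tails, read 25.3 and 31.7 with EV, 36.9 and 45.2 with Nanog, and 33.7 and 21.3 with Nanog+Sin3a. Both its Nanog arrays were above the EV arrays, by 0.53 (SE 0.28, adjusted p = 0.359), where a second probe gave -0.25.

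The remaining accessory subunits did not pass either. Ogt, which adds N-acetylglucosamine to proteins, read between 229.3 and 273.4 on the 7 arrays, and its differences ran from -0.17 in Nanog against EV to 0.09 in Nanog+Sin3a against Nanog. Sap130 read between 204.3 and 256.4 on the 7 arrays and 41.1 on the second Sin3a array, and Ing2, a reader of methylated lysine 4 on histone H3, between 65.4 and 88.3 and 14.1. Neither passed the test, and their largest differences were -0.23 (Sap130, Nanog+Sin3a against Nanog, SE 0.11) and -0.24 (Ing2, Nanog against EV, SE 0.19). Sap18 read between -7.30 and 30.5 on the 7 arrays and was at the floor on the second Nanog+Sin3a array, so its level was near the limit of what the arrays measured. Its differences of -0.39 in Nanog+Sin3a against Nanog (95% interval -1.08 to 0.31) and -0.30 in Nanog+Sin3a against EV (-0.998 to 0.39) leave a wide range.

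In NuRD 0 of 7 tested members passed in any of the comparisons in 7 arrays, where 0% to 8.02% of features did. None was among the bright features. Mta2, a scaffold of the complex, read 528.0 and 444.2 with EV, 363.0 and 270.9 with Nanog, 446.8 and 398.7 with Sin3a, and 274.6 and 354.1 with Nanog+Sin3a. The groups with and without the Nanog transgene did not overlap, with the second Sin3a array included. The differences were -0.63 in Nanog against EV (SE 0.19, 95% interval -1.09 to -0.17, adjusted p = 0.149), -0.64 in Nanog+Sin3a against EV (adjusted p = 0.098) and -0.57 over both Sin3a states (SE 0.15, 95% interval -0.94 to -0.21, adjusted p = 0.070). None passed the threshold, and the last 2 passed when features had to be above the floor on at least 4 arrays (adjusted p = 0.035 and 0.018). With all 8 arrays and a brightness threshold of 8 in place of 9, the difference over both Sin3a states was -0.53 and passed (adjusted p = 0.032). Nanog+Sin3a against Nanog gave -0.01 (95% interval -0.47 to 0.45). Mta3, another scaffold, read 562.5 and 516.7 with EV, 510.9 and 548.4 with Nanog, 532.9 and 535.1 with Sin3a, and 428.2 and 415.8 with Nanog+Sin3a. Both Nanog+Sin3a arrays were below the other 6, by -0.35 against EV (SE 0.09, 95% interval -0.58 to -0.13, adjusted p = 0.072) and -0.33 against Nanog (adjusted p = 0.306). A dimmer second probe gave -0.15 and 0.05. Mta1 read between 42.0 and 68.1 on the 7 arrays, with overlapping groups and differences of 0.19 or less in size.

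The remodellers and the other NuRD subunits did not pass either. Chd4, the main ATPase of the complex, read 273.1 and 274.4 with EV, 333.8 and 347.2 with Nanog, 323.5 and 26.3 with Sin3a, and 304.4 and 216.8 with Nanog+Sin3a. Both Nanog arrays were above both EV arrays, by 0.31 (SE 0.16, 95% interval -0.08 to 0.71, adjusted p = 0.356), and Nanog+Sin3a against EV was -0.09. Of its 3 other probes, 2 gave -0.25 and -0.76 and 1 gave 0.65 for Nanog+Sin3a against EV, so its probes disagreed. Chd3, the alternative ATPase, read between 17.9 and 45.5 on the 7 arrays, with -0.62 in Nanog+Sin3a against EV (SE 0.39, adjusted p = 0.380), where the second Nanog+Sin3a array alone was low. Mbd3, the subunit that NuRD assembly in pluripotent cells depends on, read 187.1 and 228.9 with EV, 215.6 and 313.1 with Nanog, 209.5 and 37.5 with Sin3a, and 236.3 and 206.4 with Nanog+Sin3a. Its groups overlapped among the 7 arrays, except that both Nanog arrays read above the first Sin3a array. The difference in Nanog against EV was 0.33 (SE 0.20) and did not pass. Gatad2b, which links Mbd3 to Chd4, read between 39.9 and 59.6 on the 7 arrays and -8.90 on the second Sin3a array, with 0.43 in Nanog+Sin3a against Nanog (SE 0.18, adjusted p = 0.461). Its second probe was at or below the floor with Nanog+Sin3a, so its value of -0.87 for the same comparison is a bound, in the opposite direction.

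Of NCoR, Tbl1xr1, an exchange factor that clears corepressors from promoters, read between 214.7 and 270.9 on the 7 arrays and 107.2 on the second Sin3a array. Hdac3, its deacetylase, read 850.8 and 853.7 with EV, 895.5 and 761.1 with Nanog, 835.8 and 944.7 with Sin3a, and 947.7 and 946.5 with Nanog+Sin3a. Both Nanog+Sin3a arrays were the highest of the 8, by 0.15 over EV (SE 0.12, 95% interval -0.10 to 0.41, adjusted p = 0.414, bright features). Neither gene passed in any comparison.

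A wider set of 119 genes of the same machinery, in 10 lists, gave 94 tested genes in 7 arrays and 14 among the bright features. For Nanog against EV, 1 of the 94 rose and 2 fell, where 2.69% of all features passed. For Nanog+Sin3a against EV 1 rose and 2 fell (7.45% of features), and for Nanog over both Sin3a states 2 rose and 3 fell (8.02%). Of the 14 bright genes, 1 passed for Nanog against EV (9.65% of bright features), 1 for Nanog+Sin3a against EV (17.0%) and 2 for Nanog over both Sin3a states (26.5%). These counts are near or below the shares of all features, so the genes below are given as single genes and not as a result about the lists. No gene of the lists passed for Nanog+Sin3a against Nanog or for Sin3a against EV in 7 arrays. Cbx7, a reader of methylated lysine 27 in PRC1, was the 1 of 17 tested PRC1 genes that rose in each of the 3. It read 32.7 and 31.0 with EV, 65.7 and 66.0 with Nanog, 30.4 and -9.50 with Sin3a, and 62.7 and 62.6 with Nanog+Sin3a, a rise of 1.05 (SE 0.13, adjusted p = 0.0079) over both Sin3a states. All 4 arrays with the Nanog transgene were above the other 4.

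Sall4, a zinc-finger factor of pluripotent cells that binds NuRD, was the 1 of 3 tested genes of its list that fell. It read 258.2 and 226.1 with EV, 171.1 and 134.8 with Nanog, 292.9 and 416.8 with Sin3a, and 88.5 and 98.5 with Nanog+Sin3a. The 4 arrays with the Nanog transgene were below the other 4, and Sall4 fell by 1.37 on the log2 scale in Nanog+Sin3a against EV (log2 -1.37, SE 0.16, adjusted p = 0.0085) and by 1.16 over both Sin3a states. Of 11 tested genes among other corepressors, Ctbp1 and Tle1 fell with Nanog over both Sin3a states. Tle1, a Groucho corepressor, read 453.7 and 446.2 with EV and 310.3 and 303.3 with Nanog (log2 -0.55, SE 0.09, adjusted p = 0.031). Ctbp1 read 36.0 and 31.4 with EV and was at or below the floor with Nanog+Sin3a, so its log2 value of -1.07 there (adjusted p = 0.022) is a bound. Sirt6, a deacetylase of the sirtuin family, rose by 0.86 over both Sin3a states (adjusted p = 0.039), the 1 of 10 tested other deacetylases to do so. It read at most 39.7 on any array.

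In the other 6 lists no gene passed in 7 arrays. These were the 8 tested other Sin3-associated genes, the 8 DNA-bound recruiters of Sin3, the 11 other NCoR, SMRT, CoREST and MiDAC genes, the 4 other PRC2 genes, the 11 acetyltransferases and bromodomain readers and the 11 BAF subunits. Among the bright features Aebp2, an accessory subunit of PRC2, read 946.5 and 824.2 with EV, 1267 and 1288 with Nanog, 1050 and 832.0 with Sin3a, and 1069 and 1171 with Nanog+Sin3a. It rose with Nanog against EV (0.53, SE 0.13, adjusted p = 0.014) and over both Sin3a states (0.40, adjusted p = 0.0035), with all 4 arrays of the Nanog transgene above the other 4. Thus in the PRC2 genes the brightest Ezh2 probe was lower and Aebp2 higher with Nanog. Hcfc1, a cofactor found with Sin3 and Ogt, fell over both Sin3a states (log2 -0.35, SE 0.11, adjusted p = 0.027), and Actl6a, an actin-related BAF subunit, fell in Nanog+Sin3a against EV (log2 -0.49, SE 0.13, adjusted p = 0.017).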

How the data were processed

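RNA was read on 8 Illumina bead arrays, 2 for each of 4 groups. The deposited values are probe intensity made by the authors with GenomeStudio, per the submitters' processing notes; version, settings and normalisation are not given in the sources used here. They ran from -24.0 to 14965 with 47.3% to 47.7% below 0 on each array, and their sorted values matched within 1.19% on 7 arrays (4.14% on the second Sin3a array), so they were used without further normalisation.

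Values were raised to a floor of 16 and put on the log2 scale. Of 45281 probes, 34885 had 1 symbol in the platform annotation, 18 several and 10378 none. Each symbol was represented by its brightest probe over the 8 arrays, and probes with no single symbol were kept as unnamed features. On each array 16157 to 16365 probes lay above the floor. The number of arrays limits the precision.

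Differences were tested with limma 3.58.1 in R 4.3.3 (lmFit, eBayes with an intensity trend, 1 coefficient per group), two-sided, with Benjamini-Hochberg adjustment over all features tested at 0.05. The fit of 7 arrays had 3 residual degrees of freedom, its single Sin3a array being assumed to vary like the other groups, and the fit of bright features 4. A difference over both states of the other transgene is the mean of the differences in each. In 7 arrays, that over both Sin3a states and Sin3a against EV were added after values had been seen. On simulated data the fit of 7 arrays recovered 34 of 100 genes changed by 0.5 and 89 of 100 changed by 1 (log2) in Nanog+Sin3a against EV among 12886 features, with 4.65% of calls false. The bright fit recovered 100 of 100 at either size for Nanog over both Sin3a states among 2300, with 7.41% of calls false. In both, changes were placed only in features clear of the floor, with normal noise of the spread that the fit itself estimated. Members such as Sap18, Arid4a, Arid4b, Phf12, Chd3, Mta1 and Gatad2b were dimmer than those features, so the rates do not describe them. No change below 0.5 was simulated. For Nanog over both Sin3a states every bright member differed by less than that, so the bright rates do not cover differences of their size.

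Same-numbered arrays did not deviate together (correlations of -0.17 to 0.06 over features), so the replicate numbers were not used as pairs. The members, the gene lists and the use of the 2 fits were chosen with earlier results of these data known. By the rule for named genes, every member is named, those that passed are described in full, and the related lists give up to 3 genes that passed per list and direction. The alternatives tried were another floor, filter, normalisation, probe rule, trend and brightness threshold, a replicate block, all 8 arrays on all features, and leaving out each array. Promoter windows came from RefSeq (GRCm38.p6) by gene symbol. Figures were drawn with matplotlib 3.10.9.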

Additional observations from a re-analysis of the deposited data

Results flagged for a closer look

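Sin3b, the paralogue of Sin3a, moved in opposite directions with the Sin3a transgene in the 2 backgrounds: on the log2 scale the difference was -1.71 in Sin3a against EV and 0.11 in Nanog+Sin3a against Nanog, a gap of 1.82. This difference was not tested. It rests on the second Sin3a array, which read 11.5 where the first read 163.7. Without that array Sin3a against EV was -0.03.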

How the results depend on the processing

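The fits with 2 arrays a group and 3 or 4 residual degrees of freedom limit every call, and dim probes near the floor limit it further. Alternatives were run for the counts of members and for the differences of Sin3a, Ezh2 and Kdm1a that passed, and none of these differences changed direction; the other members and the related genes were not followed one by one. The number of members that passed was unchanged under every alternative for Nanog against EV in 7 arrays (0) and for the interaction (0). For Nanog+Sin3a against EV in 7 arrays (2), it was 5 when at least 4 arrays had to exceed the floor (Sin3a, Arid4a, Mta2, Ezh2 and Eed), 0 with no filter, 1 with all 8 arrays (Sin3a), and 0 to 2 leaving out 1 array. Calls over all features rose too, from 960 to 1463 with that filter on 4 arrays and to 1287 with a floor of 32. These settings also gave more calls over all features for Nanog over both Sin3a states. With the mean of all probes the number of members stayed 2 with other members (Sin3a and Arid4a, Ezh2 lost), and with a floor of 32 it was 3 (Arid4a added). For Nanog over both Sin3a states in 7 arrays (1), it was 3 with a floor of 32 or with that filter (Arid4a, Mta2 and Ezh2 each time), 0 with no filter, with the mean of all probes, without the trend or with all 8 arrays, and 0 to 1 leaving out 1 array; without the first Sin3a array it could not be fitted. For Nanog+Sin3a against Nanog in 7 arrays (0), it was 1 (Sin3a) with a floor of 8 or 32, with the filter on 4 arrays and with median centring, and 0 to 1 leaving out 1 array. For Sin3a against EV in 7 arrays (0), it was 1 (Sin3a) with a floor of 32 or the filter on 4 arrays.

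In the bright features the counts for Nanog+Sin3a against EV (1), Nanog+Sin3a against Nanog (1), Sin3a against EV (1), Nanog (2) and Sin3a (1) over both states of the other all became 0 with a mean log2 above 10, a set that holds neither Sin3a nor Kdm1a. With all 8 arrays on all features they were 0 for Nanog+Sin3a against Nanog, Sin3a against EV and Nanog over both Sin3a states. Leaving out 1 array gave 0 to 2 for Nanog over both Sin3a states, 1 to 2 for Sin3a over both Nanog states (Rbbp7 added without the first Nanog array), 0 to 2 for Nanog against EV (Sin3a and Hdac2 without the first Nanog array) and 0 to 1 for Nanog+Sin3a against Sin3a (Sin3a, without the same array). The replicate block left 0 members for Nanog over both Sin3a states in 7 arrays (573 features against 1033) and changed no other count of members by over 1.5 times. Ezh2 kept its call in 8 of 17 alternatives for Nanog+Sin3a against EV (adjusted p 0.0047 to 0.512) and in 5 of 16 over both Sin3a states (0.0100 to 0.589), Kdm1a in 9 of 17 (0.0264 to 0.181), and the rise of Sin3a with Nanog in 15 of 17 (8.2e-05 to 0.225). The cause of these changes was not tested, except that the set above 10 lacks the genes.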
